A study of Mus musculus with 6 samples.

Results

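The miR-181 family of microRNAs (miRNAs) was examined in small RNA libraries of C2C12 cells, a mouse myoblast cell line. All rows whose names start with mmu-miR-181 were taken from each of the 6 tables, which gave 3 rows of the 49 listed in each library. They were miR-181a-1-3p, miR-181c-5p and miR-181d-5p. The WT group held 3 libraries of unedited cells, and the MSTN-KO group held 3 libraries of cells in which an exon of the myostatin gene had been cut with CRISPR/Cas9. The study calls its knockout line C11 and describes a single such line, while the sample labels give C11 as the strain of all 6 libraries, the WT ones included. No label gives a treatment or a time, and nothing says whether the libraries of a group came from separate cultures, so that p-values measure only the spread between these libraries. The myostatin transcript was not analysed here, and the genotypes rest on the labels alone. For each miRNA in the article's list of predicted regulators, the direction by sample title in these tables is the reverse of the direction given there. The article also reports, from qRT-PCR, higher levels of miR-206-3p, miR-301b-3p, miR-130b-3p and both arms of miR-335 in its knockout cells. All of these rows were lower in the libraries titled MSTN-KO. The titles or the tables may therefore be exchanged between the groups, which would reverse every direction below and leave the sizes as they are. This was not resolved, and WT and MSTN-KO below mean the libraries so labelled.

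miRNAs are cut from a hairpin precursor. Either the 5p or the 3p arm of the hairpin can be loaded onto an Argonaute protein, where it guides the repression of messenger RNAs that pair with its seed, the stretch from base 2 to base 8. The miR-181 family is known for setting the sensitivity of the T-cell receptor during thymocyte development, and in muscle for its rise during myoblast differentiation, where it represses the homeobox gene Hoxa11. These known roles belong to the 5p arms, whereas the 3p arms are usually the rarer product of the hairpin.

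In GRCm38 the family has 6 hairpins on 3 chromosomes, 2 on each, which yield 10 mature sequences. Of these, 3 were in the tables and the other 7 were not analysed here, among them miR-181a-5p and miR-181b-5p. miR-181a-1-3p is the 3p arm of Mir181a-1 (chromosome 1, 137966455 to 137966541, plus strand). That hairpin overlaps an exon of A430106G13Rik, a long noncoding RNA, and in an intron of the noncoding transcript Gm4258, both on the same strand, and 97 bases before Mir181b-1. miR-181d-5p is the 5p arm of Mir181d (chromosome 8, 84178716 to 84178787, minus strand), and miR-181c-5p is the 5p arm of Mir181c (chromosome 8, 84178873 to 84178961, minus strand). Both lie in an intron of Nanos3 on the same strand, with 85 bases between them. The chromosome 1 member was therefore measured by its 3p arm and the chromosome 8 members by their 5p arms, and no hairpin of the family had both arms in the tables.

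**Figure D1:**
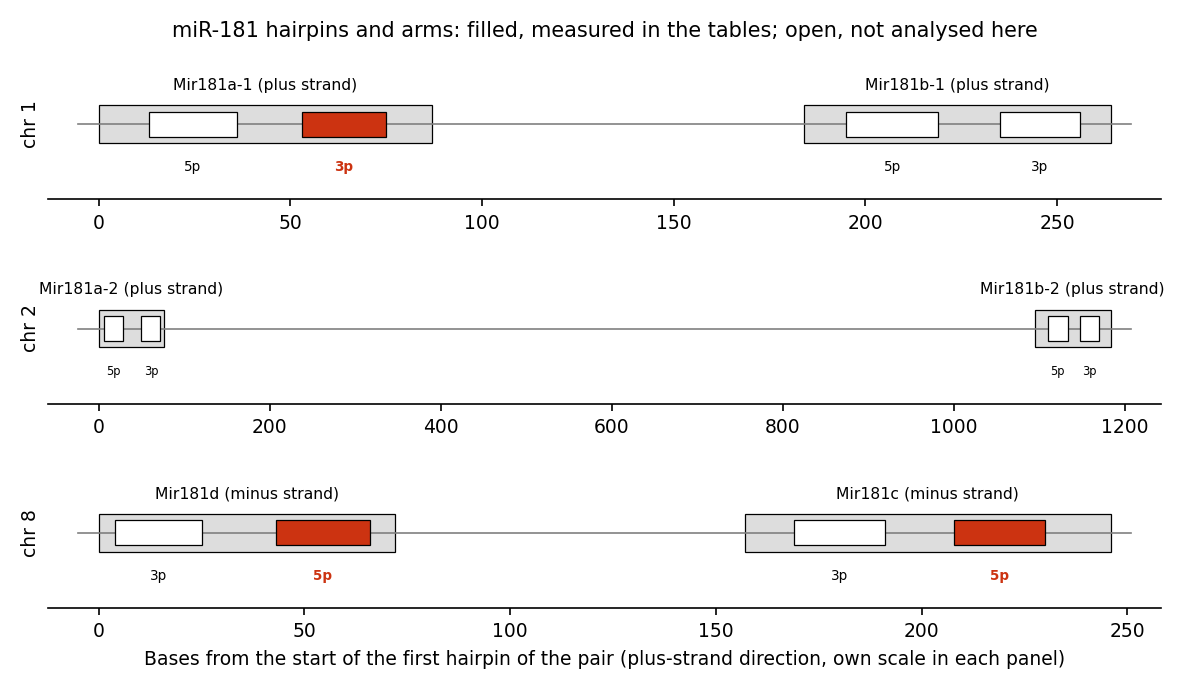
The 3 pairs of miR-181 hairpins are drawn to scale (grey boxes), with distance in bases from the start of the first hairpin on the horizontal axis and a scale of its own for each chromosome. Small boxes are the mature arms, filled for the 3 rows measured and open for arms not analysed here, so that a single 3p arm stands for chromosome 1, none for chromosome 2 and a pair of 5p arms for chromosome 8.

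The mature sequences (RefSeq, GRCm38.p6) are shown because the rows differ in their seeds, and not only in their position. They are written 5′ to 3′ with the seed in capitals, first the 3 measured rows and then the relatives most like them.
miR-181a-1-3p: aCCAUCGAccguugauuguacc
miR-181c-5p: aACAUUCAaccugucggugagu
miR-181d-5p: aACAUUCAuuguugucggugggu
miR-181a-5p: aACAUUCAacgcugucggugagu
miR-181b-5p: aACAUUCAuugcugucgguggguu
miR-181c-3p: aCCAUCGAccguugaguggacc
miR-181a-2-3p: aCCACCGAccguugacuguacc

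miR-181c-5p and miR-181d-5p shared the seed ACAUUCA, which 4 mature miRNAs of the RefSeq table carry, all of them 5p arms of this family. miR-181a-1-3p had the seed CCAUCGA, which in that table it shares with miR-181c-3p alone. No other of the listed miRNAs with a mature sequence in that table (32 of 49) had either seed.

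Several relatives are close enough in sequence for the counting step, which is not described, to matter. With positions counted from 1 at the 5′ end and the relative's base first, miR-181d-5p differed from miR-181b-5p by C12U and by its length of 23 instead of 24 bases. miR-181c-5p (22 bases) lay 1 edit from miR-181a-5p (23 bases). miR-181a-1-3p differed from miR-181c-3p by G16U and G19U, with 15 bases in a row in common, and from miR-181a-2-3p by C5U and C16U. Among the 3 measured rows the fewest edits were 5, between miR-181c-5p and miR-181d-5p. Reads of these rows are therefore uncertain with respect to relatives outside the tables, and less so among themselves.

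The hairpins of the chromosome 1 member and of the most abundant chromosome 8 member are given with the measured arm in capitals, to show on which side of the loop each row lies.
Mir181a-1: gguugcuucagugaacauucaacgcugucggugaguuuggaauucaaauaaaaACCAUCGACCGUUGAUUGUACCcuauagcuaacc
Mir181d: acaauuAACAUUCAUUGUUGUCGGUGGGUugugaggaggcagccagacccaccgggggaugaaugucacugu

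Values are RPM, that is, reads scaled to a common library size. Library totals, read from the step that 1 read is worth, lay between 5502214 and 11823489, so that 3 reads, the least counted here as detected, corresponded to 0.254 to 0.545 RPM. In all 49 rows of the tables the groups did not overlap, so that the rows form no unchanged background. Of 15 muscle miRNAs, 9 were listed, and their sum was 19001 to 32593 RPM in the libraries labelled WT and 6324 to 11077 RPM in those labelled MSTN-KO. Nearly all of that sum was miR-206-3p, with 18322 to 31551 RPM in WT and 6143 to 10766 RPM in MSTN-KO. None of 15 miRNAs that mark blood, endothelium, nerve, epithelium or liver was listed, but miR-9-3p, the other arm of the nerve marker miR-9-5p, was, with means of 4.07 RPM in WT and 11.0 RPM in MSTN-KO. Because every listed row differed between the groups, a marker that is not listed may still be expressed. The list therefore cannot show which cell types were present. The part of the muscle miRNAs and of miR-9-3p in the results below was not tested.

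To find which family members differed between the labelled groups, each row was compared between MSTN-KO and WT. The 3p arm from chromosome 1 was higher and both 5p arms from chromosome 8 were lower in libraries titled MSTN-KO, a direction that rests on the titles. With p-values from limma adjusted over the 49 rows (Benjamini-Hochberg) and a threshold of 0.05, 1 of the 3 rows rose and 2 fell. Of all 49 rows, 28.6% rose, 71.4% fell, and 100% passed in either direction, so passing the test does not set the family apart from the other listed miRNAs. An earlier count of changed miRNAs in the article has more lowered than raised and does not match these rows. With 14 rows higher and 35 lower, the rows match in number its later screen by p-value and fold change, with the directions reversed. Rows so chosen differ between these groups by selection. The p-values and intervals given here therefore describe the rows and cannot test whether they differ. Under the criteria stated in the article's methods (p under 0.05, log2 fold change above 1 or below -1) the counts were again 1 and 2, against 28.6% and 57.1% of the table.

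miR-181a-1-3p, the strand opposite miR-181a-5p in its hairpin, had 24.7, 19.1 and 27.1 RPM in WT replicates 1, 2 and 3. In MSTN-KO replicates 1, 2 and 3 it had 71.4, 65.4 and 76.9 RPM. Every MSTN-KO library lay above every WT library, and the closest pair still differed 2.42-fold.

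The group means of miR-181a-1-3p were 23.6 ± 4.10 RPM in WT and 71.2 ± 5.79 RPM in MSTN-KO (SD, n = 3), a 3.02-fold higher level. On the log2(RPM + 1) scale the change was 1.56 with a standard error of 0.20 and a 95% interval from 1.10 to 2.03 (limma adjusted p = 0.000139). An exact two-sided permutation test of the RPM values gave p = 0.1, the smallest that 3 against 3 libraries allow. These levels rested on 131 to 320 reads per WT library and 393 to 670 reads per MSTN-KO library. Intervals from counting alone (95% Wilson) ran from 16.1 to 30.2 RPM over the WT libraries and from 60.4 to 83.0 RPM over the MSTN-KO libraries, and did not meet. They cover counting error only, because without molecular identifiers several reads can stem from 1 molecule.

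miR-181d-5p, a 5p arm with the family's main seed, had 742, 784 and 769 RPM in WT replicates 1, 2 and 3. It had 355, 381 and 384 RPM in MSTN-KO replicates 1, 2 and 3. The groups lay far apart relative to their spread, and in the closest pair the WT library was still 1.93-fold above the MSTN-KO library. In each WT library it was the miRNA of rank 2 among the 49 by RPM, and in each MSTN-KO library it had rank 3.

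The means of miR-181d-5p were 765 ± 21.1 and 373 ± 16.1 RPM (SD, n = 3), or 2.05-fold higher in WT. On the log2(RPM + 1) scale it fell by 1.03 (SE 0.18, 95% interval -1.43 to -0.63, limma adjusted p = 0.00046). With 1951 to 9093 reads per library it was the most deeply sampled family row. Its coefficient of variation was 2.76% in WT and 4.32% in MSTN-KO, against 1.29% and 1.89% from counting alone.

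miR-181c-5p, which has the same seed and comes from the neighbouring hairpin, was far rarer. It had 15.1, 14.6 and 17.1 RPM in WT replicates 1, 2 and 3 and 8.36, 5.76 and 7.35 RPM in MSTN-KO replicates 1, 2 and 3. All MSTN-KO libraries were below all WT libraries, by 1.74-fold in the closest pair.

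The means of miR-181c-5p were 15.6 ± 1.33 and 7.16 ± 1.31 RPM (SD, n = 3), or 2.18-fold higher in WT. It fell by 1.03 on the log2(RPM + 1) scale (SE 0.20), with a 95% interval from -1.49 to -0.58 (limma adjusted p = 0.000974). The row rested on 98 to 202 reads in the WT libraries and 46 to 64 in the MSTN-KO libraries. Its coefficient of variation of 8.51% in WT was no larger than the 8.99% that counting gives, and in MSTN-KO it was 18.3% against 13.9%. The spread of miR-181a-1-3p exceeded counting more clearly, with 17.4% against 7.29% in WT and 8.12% against 4.34% in MSTN-KO.

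**Figure D2:**
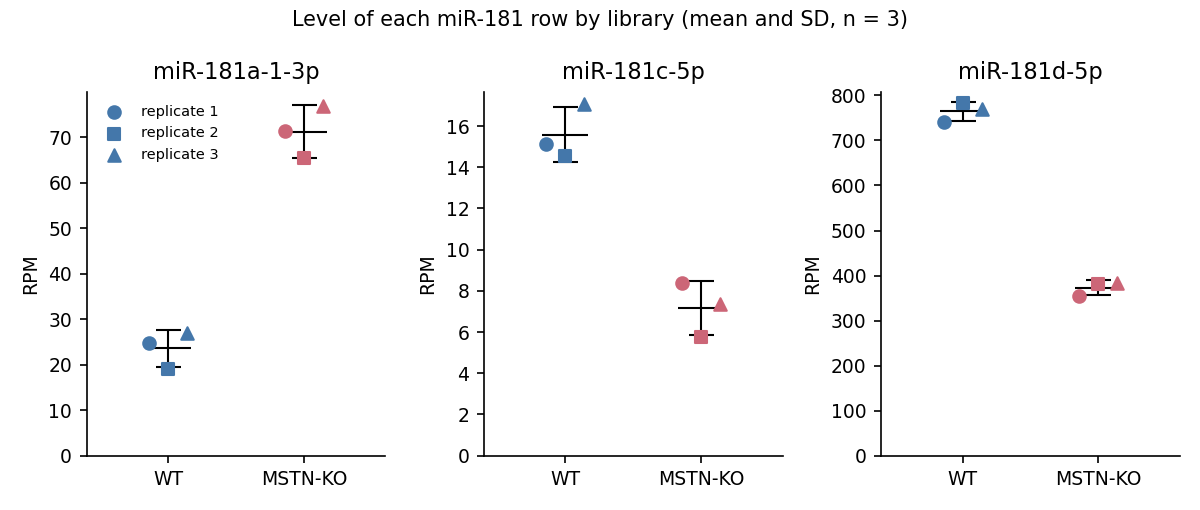
Level in RPM (vertical axes from 0, own scale in each panel) of the 3 miR-181 rows in the WT and MSTN-KO libraries, with replicates as points and the mean and SD as lines (n = 3). The groups separate in every panel, upward for miR-181a-1-3p (23.6 to 71.2 RPM) and downward for miR-181c-5p (15.6 to 7.16 RPM) and miR-181d-5p (765 to 373 RPM).

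The fold changes of both chromosome 8 rows stood just past the fold cut-off. Leaving out WT replicate 3 brought miR-181c-5p to -0.97, leaving out MSTN-KO replicate 2 brought it to -0.90, and leaving out MSTN-KO replicate 1 brought miR-181d-5p to -0.998. In each of these fits 1 row instead of 2 was past the fold cut-off, while both stayed under the adjusted p-value of 0.05 (limma).

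The ratio of a pair of rows within a library does not depend on the library total, so the 3 possible pairs were compared as well. In WT replicates 1, 2 and 3 the log2 ratio of miR-181a-1-3p to miR-181d-5p was -4.91, -5.36 and -4.83. In MSTN-KO replicates 1, 2 and 3 it was -2.31, -2.54 and -2.32. miR-181d-5p was thus 28.4 to 41.1 times as abundant as the 3p arm in WT, but 4.96 to 5.83 times in MSTN-KO. The difference of 2.64 on the log2 scale is a 6.24-fold shift of the ratio (exact two-sided permutation p = 0.1, adjusted over the 3 pairs p = 0.15). A limma fit of the ratio of each row to miR-181d-5p, added after the data were seen, gave 2.60 on the log2(RPM + 1) scale with a 95% interval from 2.12 to 3.08. With miR-181a-1-3p as the common denominator the reverse ratio gave -2.60, with a wider 95% interval from -3.31 to -1.89. The width thus depends on which row is the denominator. Since the one row was higher and the other lower in every MSTN-KO library, these ratios had to part.

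The ratio of miR-181a-1-3p to miR-181c-5p moved by a like amount. It was 0.71, 0.39 and 0.66 on the log2 scale in WT replicates 1, 2 and 3 and 3.09, 3.50 and 3.39 in MSTN-KO replicates 1, 2 and 3. The 3p arm was thus the more abundant of the pair in all 6 libraries. The difference was 2.74, a 6.69-fold shift (exact two-sided permutation p = 0.1, adjusted p = 0.15).

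For the neighbouring chromosome 8 hairpins the ratio was not fixed in advance by opposite directions. The log2 ratio of miR-181c-5p to miR-181d-5p was -5.62, -5.75 and -5.49 in WT replicates 1, 2 and 3 and -5.41, -6.05 and -5.71 in MSTN-KO replicates 1, 2 and 3. The groups overlapped, with the highest and the lowest ratio both in the MSTN-KO group. The difference between groups was -0.10 (exact two-sided permutation p = 0.7, adjusted p = 0.7). In the limma fit of ratios to miR-181d-5p the 95% interval of the difference ran from -0.48 to 0.48 (adjusted p = 0.999). The rows may therefore have changed unequally within that range. miR-181d-5p was 45.0 to 53.8 times as abundant as miR-181c-5p in WT and 42.4 to 66.1 times in MSTN-KO.

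**Figure D3:**
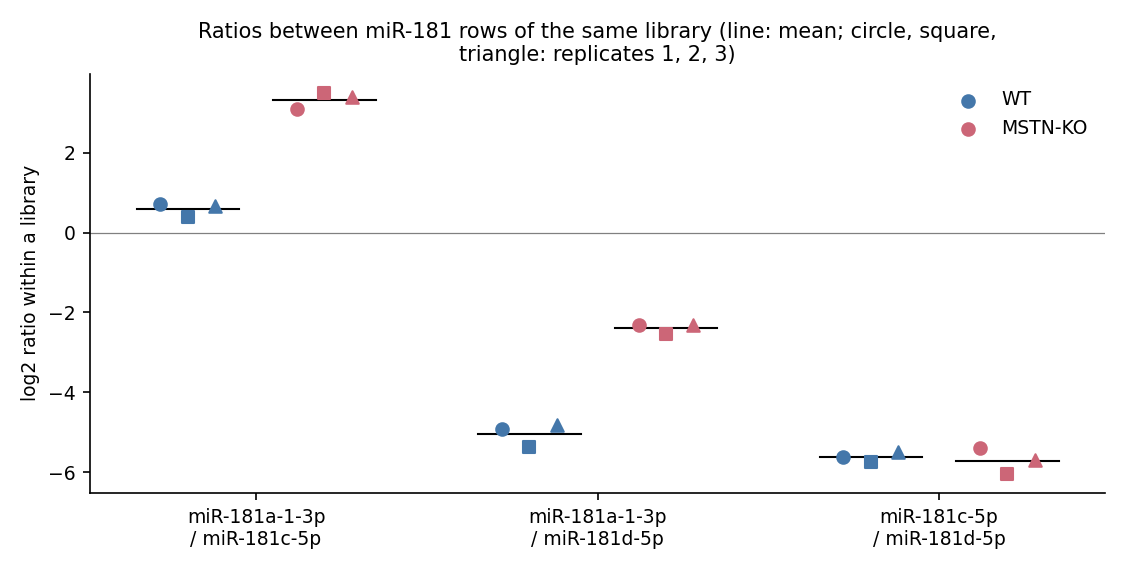
Log2 ratio of RPM (vertical axis) for the 3 pairs of miR-181 rows within each library, WT in blue and MSTN-KO in red, with the mean as a line. Both ratios with miR-181a-1-3p on top are higher in every MSTN-KO library (differences of 2.74 and 2.64), whereas the ratio of miR-181c-5p to miR-181d-5p overlaps between groups (difference -0.10).

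Summed over the 3 rows, the family had 804 ± 19.4 RPM in WT and 452 ± 16.8 RPM in MSTN-KO (SD, n = 3). The sums ran from 782 to 817 RPM and from 434 to 468 RPM without overlap, a log2 difference of -0.83 (exact two-sided permutation p = 0.1). miR-181d-5p made up most of the sum, with 95.1% ± 0.681 in WT and 82.6% ± 1.43 in MSTN-KO. The share of miR-181a-1-3p went from 2.94% ± 0.531 to 15.8% ± 1.15 (SD, n = 3, exact permutation p = 0.1 for each of these shares). Since miR-181a-1-3p was higher and both other rows were lower in every MSTN-KO library, its share had to rise. The share of miR-181d-5p is nearly its complement, so these p-values add nothing to the directions of the rows. miR-181c-5p held 1.94% ± 0.159 and 1.59% ± 0.326, and its share overlapped between groups (exact permutation p = 0.2). Within the listed rows the order was miR-181d-5p, miR-181a-1-3p, miR-181c-5p in all 6 libraries, for mature lengths of 23, 22 and 22 bases. Neighbours in that order did not overlap in level within either group.

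Among the listed miRNAs the rise of miR-181a-1-3p took place 5 of 14 by size, where the median rise was 1.37. The falls of miR-181d-5p and miR-181c-5p took places 27 and 28 of 35, where the median fall was -1.30. Both chromosome 8 rows lay 0.040 above the median of all 49 rows (-1.07), whereas miR-181a-1-3p lay 2.64 above it.

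**Figure D4:**
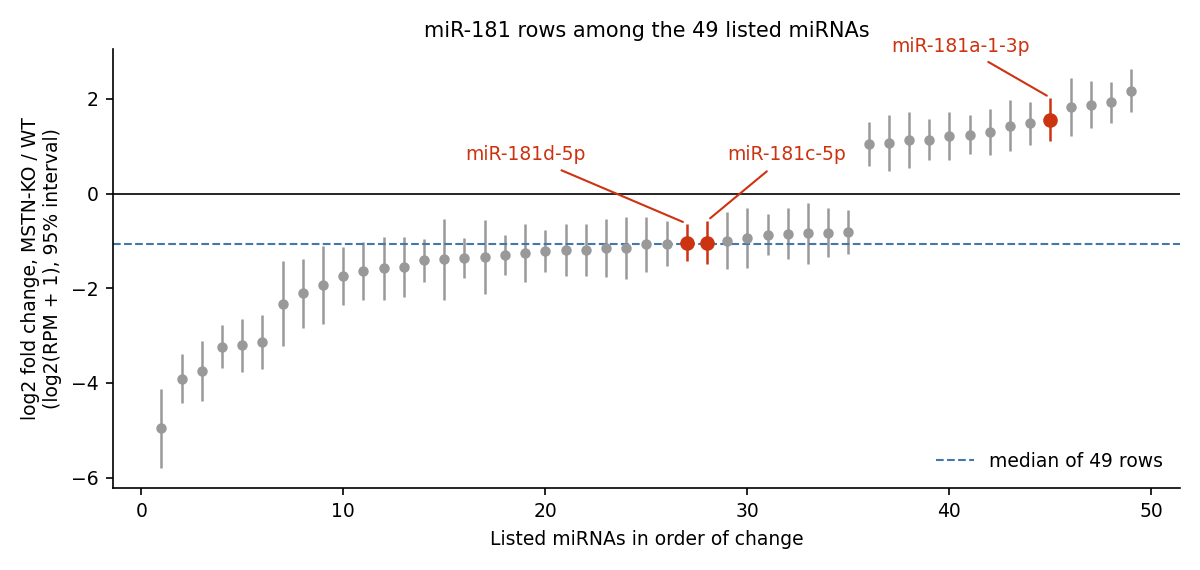
Log2 fold change of MSTN-KO over WT on the log2(RPM + 1) scale with 95% limma intervals (vertical axis) for the 49 listed miRNAs in order of change (horizontal axis), with the miR-181 rows in red and the median of all rows dashed. miR-181a-1-3p (1.56) sits among the 14 rows above 0, and miR-181c-5p and miR-181d-5p (-1.03 each) sit on the median of -1.07.

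Of 12 groups of rows that share a miRNA number in their names, miR-181 was the only one with rows in both directions. In 2 of the others all rows were higher and in 9 all rows were lower in MSTN-KO. Most of those groups were the 2 arms of the same hairpin, whereas the miR-181 rows come from different chromosomes. The count used deposited RPM. Under median of ratios miR-181a-1-3p, miR-181c-5p and miR-181d-5p stood at log2 fold changes of 2.66, 0.0020 and 0.10, without opposite directions. Under the listed total they stood at 2.95, 0.28 and 0.40. In 10 hairpins the tables held both arms, and in all 10 both arms changed in the same direction. This is a count over selected rows with no test, and since no miR-181 hairpin had both arms listed, it does not extend to that family.

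The patterns most like each row were taken from Pearson's r of log2(RPM + 1) over the 6 libraries, which share the division into groups. For miR-181a-1-3p these were miR-344b-3p (r = 0.962), miR-139-3p (0.961) and miR-9-3p (0.958). For miR-181d-5p they were miR-130b-5p (0.995), miR-148a-3p (0.994) and miR-301b-5p (0.993), and for miR-181c-5p miR-1983 (0.983), miR-669l-5p (0.980) and miR-301b-3p (0.971). miR-181c-5p and miR-181d-5p correlated with r = 0.943, which was place 15 among the rows most like miR-181d-5p and place 8 among those most like miR-181c-5p. These values are descriptions over 6 libraries of the 2 groups.

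The directions of the chromosome 8 rows depended on the library total by which the authors divided. Scaling to the listed miRNAs instead moved the median log2 fold change of all rows up by 0.99 (median of ratios), 1.23 (listed total) and 0.90 (quantile normalization). Under median of ratios the log2 fold changes were 2.66 for miR-181a-1-3p, 0.0020 for miR-181c-5p and 0.10 for miR-181d-5p. Under the listed total they were 2.95, 0.28 and 0.40 in the same order. The adjusted p-values of both chromosome 8 rows then lay between 0.315 and 0.994 (limma). Quantile normalization left both rows lower, at -0.46 and -0.59, with limma adjusted p-values of 0.0362 and 0.000202. This scaling sets values by rank, and miR-181d-5p had rank 2 in each WT library and rank 3 in each MSTN-KO library. Its scaled values were therefore 585 RPM in each WT and 387 RPM in each MSTN-KO library, without spread. Its change of -0.59 and its p-value there thus reflect those ranks and measure no spread between libraries. miR-181a-1-3p kept its rise under each of the 3 scalings, with a limma adjusted p of at most 0.00139. The scalings raised its fold change, so the kept direction is no test of it. The listed miRNAs made up between 0.773% (MSTN-KO replicate 1) and 3.47% (WT replicate 2) of a library. Most of their sum was miR-206-3p, with 6143 of 7727 RPM in MSTN-KO replicate 1 and 31551 of 34748 RPM in WT replicate 2. Since all 49 rows differed between the groups, they hold no unchanged reference for scaling. Which total suits these libraries was not tested.

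**Figure D5:**
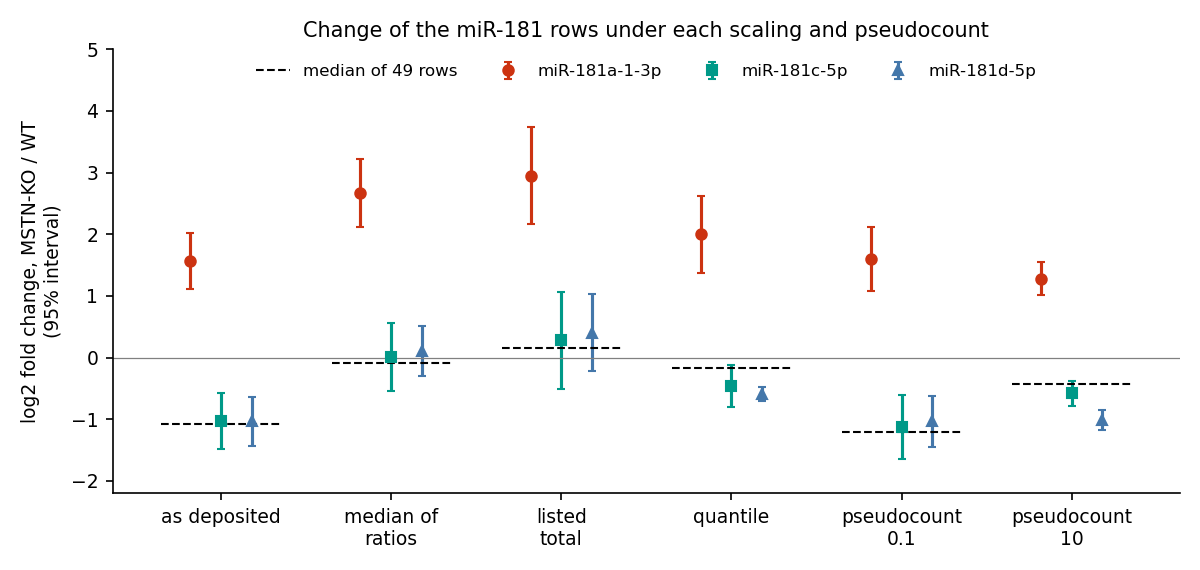
Log2 fold change of MSTN-KO over WT with 95% limma intervals (vertical axis) of the 3 miR-181 rows, as deposited, under 3 scalings to the listed miRNAs and with pseudocounts of 0.1 and 10, beside the median of all rows (dashed). miR-181a-1-3p stays above 0 throughout (1.28 to 2.95), while miR-181c-5p and miR-181d-5p move from -1.03 each as deposited to 0.28 and 0.40 under the listed total.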

How the data were processed

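Small RNA was sequenced on an Illumina HiSeq instrument from 3 WT and 3 MSTN-KO libraries. The deposited values are RPM, 1 per miRNA and library. The submitters' processing notes name Bowtie 0.12.2 and the mm8 build. The sources used here do not say which program counted reads, which set of miRNAs it used or which reads made up the total. No source states how the 49 miRNAs were picked. Their numbers, 14 higher and 35 lower, match the article's screen of changed miRNAs by p-value and fold change, with the directions reversed. An earlier count in the article, with more miRNAs lowered than raised, does not match them. The article calls its values FPKM, but all values above 0 were whole multiples (within 0.01) of 1 step per library, taken as 1 read. The 49 rows were too few to check the reads recovered in this way, so a count model was not run.

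Groups came from the sample titles. Log2(RPM + 1) was tested with limma 3.58.1 in R 4.3.3 (lmFit, eBayes, two-sided, no covariate) for miRNAs with at least 1 RPM in at least 1 library, which all 49 met, with Benjamini-Hochberg adjustment over the 49. Ratios, sums and shares were compared by exact permutation (scipy 1.17.1). Coordinates are those of GENCODE M21 (GRCm38), matched by name, since the tables hold none. Sequences are RefSeq's. Alternatives were other pseudocounts, filters and scalings, a mean-variance trend, the replicate number as a block, and leaving out each library. The named rows are all miR-181 rows plus, for each, the 3 rows of highest correlation, and the lists are the 10 miR-181 mature names, hairpins with both arms listed, and miRNAs marking muscle or other cell types. Members and lists were chosen with earlier results of these data known.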

Additional observations from a re-analysis of the deposited data

How the results depend on the processing

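Leaving out each library in turn gave log2 fold changes of 1.43 to 1.67 for miR-181a-1-3p, -1.14 to -0.90 for miR-181c-5p and -1.06 to -0.998 for miR-181d-5p, each under the adjusted threshold (limma). From 1 to 2 rows stayed past the lower fold cut-off, with 1 when WT replicate 3, MSTN-KO replicate 1 or MSTN-KO replicate 2 was left out. A pseudocount of 10 left 1 row there. Under median of ratios and the listed total 0 rows were called lower by either criterion and 0 at an unadjusted p under 0.05, since miR-181c-5p stood at 0.0020 and 0.28 and miR-181d-5p at 0.10 and 0.40 (adjusted p from 0.315 to 0.994, against 2.3e-05 to 0.0362 over the other alternatives). Quantile normalization left 0 past the fold cut-off and 2 under the adjusted p. There the values of miR-181d-5p were set by its rank and had no spread within a group. The log2 sum of the rows differed by 0.30 and 0.60 under the first pair of scalings, instead of -0.83, and by -0.86 to -0.81 without single libraries. These scalings were built on the listed rows, most of which fell.

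The ratio of miR-181c-5p to miR-181d-5p, which differed by -0.10 as reported, differed by 0.00035 with 1 RPM added, 0.44 with 10 RPM added, 0.094 under quantile normalization and -0.26 to 0.063 without single libraries. It turned positive without MSTN-KO replicate 2. An addition of 10 RPM exceeds the level of miR-181c-5p in the MSTN-KO libraries. The ratios with miR-181a-1-3p kept their direction in all alternatives run, and in the limma fit of ratios (added after seeing the data) both differed by 2.60 with an adjusted p-value under 0.05, while that of the chromosome 8 pair differed by 0.00035.

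Replicate numbers 1 to 3 occur in both groups. Deviations from the group mean correlated by 0.0047 to 0.22 in same-numbered pairs, and 3 of 6 libraries correlated best with their own number, so the libraries were treated as sharing a number only. With the replicate block the fold changes were 1.56, -1.03 and -1.03, the counts stayed at 1 and 2, and no call changed. The ratios differed by 2.74, 2.64 and -0.10 as before, with sign-flip p-values of 0.25, 0.25 and 0.5, where 0.25 is the smallest possible. A count test on reads was not run. miR-181c-5p, with 46 to 64 reads per MSTN-KO library, is limited most by depth.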
